A study of Mus musculus with 4 samples.

Results

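Hepatic expression of 10 genes of iron handling and metal binding was analysed in aP2-SREBP-1c mice, namely Hamp, Tfr2, Hfe, Bmp6, Tfrc, Slc11a2, Slc39a14, Slc40a1, Mt1 and Mt2. The genes were chosen by name and function, and each was represented by the probe set that carries its symbol alone. All 10 genes were found among 19938 measured genes, with 1 probe set each. Liver RNA of 4 male mice, labelled C57Bl6-TgN aP2-HA-hSREBP-1c-NT and 24 weeks old, was hybridized to 1 Mouse Gene 1.0 ST array per mouse. In this strain the aP2 promoter drives the transcriptionally active part of human SREBP-1c in adipocytes, and the study describes the transgene as not expressed in liver. The mice lack normal adipose tissue and develop massive hepatic steatosis and systemic insulin resistance. They were kept on regular chow and killed in the morning without further treatment. These 4 arrays form 1 group. The results are therefore levels and their spread from mouse to mouse, and no test between phenotypes was made.

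Hepcidin, encoded by Hamp, is the hormone of hepatocytes that limits iron in the circulation. It binds ferroportin, the iron exporter encoded by Slc40a1, and causes its degradation. Hepatocytes raise Hamp transcription when BMP6 from sinusoidal endothelial cells activates BMP receptors and SMAD proteins, when HFE and transferrin receptor 2 sense iron-loaded transferrin, and when interleukin 6 activates STAT3. Iron enters cells through transferrin receptor 1 (Tfrc), DMT1 (Slc11a2) and ZIP14 (Slc39a14), a carrier of zinc and of iron that is not bound to transferrin. Metallothioneins 1 and 2 (Mt1 and Mt2) are small cysteine-rich proteins that bind zinc and copper. Their genes are induced by metals through the factor MTF1, by glucocorticoids and in the acute phase.

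Sequences at the start of Hamp and the metallothionein genes are shown because Hamp is the hormone gene of the hepcidin axis and the metallothioneins had the widest spread between mice. Sequences were taken from RefSeq on GRCm38.p6, where 7 of the 10 genes had an entry. The stretches end at the base before the start that the promoter table gives for a gene, and capitals mark motif matches. For Mt1 the gene as annotated by RefSeq begins further upstream, so that the stretch shown lies within it. In Hamp and its paralogue Hamp2 the motifs were GGCGCC, the core of the BMP-responsive element, and TTCNNNGAA, the core of STAT sites, both palindromic and not overlapping each other.
Hamp, chr7:30944030-30944179, minus strand: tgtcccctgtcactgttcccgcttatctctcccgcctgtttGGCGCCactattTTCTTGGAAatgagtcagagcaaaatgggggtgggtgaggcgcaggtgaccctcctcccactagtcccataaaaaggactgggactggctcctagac
Hamp2, chr7:30924182-30924331, minus strand: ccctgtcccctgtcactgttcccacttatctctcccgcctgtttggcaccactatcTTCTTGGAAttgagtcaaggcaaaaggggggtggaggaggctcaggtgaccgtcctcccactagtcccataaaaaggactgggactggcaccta
Positions give the first base of a match, counted from that start as 0. Hamp held GGCGCC from position -109 and TTCNNNGAA from position -97. Hamp2 held TTCNNNGAA from position -94 and no GGCGCC in the 300-base window from 250 bases before to 50 bases after the start. Of 32851 such windows of all genes, 11.9% held GGCGCC and 8.3% held TTCNNNGAA.

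For Mt1 and Mt2 the motifs were TGCACNC and TGCGCNC on both strands, which together form the core of the metal response element bound by MTF1.
Mt1, chr8:94179059-94179088, plus strand: cccgctgTGCACACtggcgctccagggagc
Mt2, chr8:94172368-94172617, plus strand: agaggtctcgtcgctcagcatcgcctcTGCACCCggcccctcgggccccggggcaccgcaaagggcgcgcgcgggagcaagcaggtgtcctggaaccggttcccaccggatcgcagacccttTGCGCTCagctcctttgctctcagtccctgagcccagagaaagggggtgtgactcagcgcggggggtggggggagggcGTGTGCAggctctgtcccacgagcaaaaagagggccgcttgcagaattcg
Mt2 held 3 matches in this stretch and a match from position 4 after the start. The match of Mt1 began at position -23, and 2 further matches began at positions 2 and 20 after the start. At least 3 matches were held by 1.97% of all windows and at least 4 by 0.517%. A match is a description of the letters, and binding was not measured.

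All 10 genes were expressed above background in all 4 mice, as were 61.5% of all genes. Receptors of smell and pheromones set the background limit, and the 95th percentile of their probe sets lay between 5.33 and 5.52 on the log2 scale. Levels are log2 expression values after RMA, which subtracts background, scales the arrays towards each other and summarizes the probes of each gene. The deposited arrays were not on 1 common distribution, since mouse 1 differed from the others by a median of 0.13 in the lowest of 10 classes of mean level and of -0.23 in the highest. A log2 value belongs to 1 probe set, and levels are not compared between genes.
The metallothionein genes Mt1 and Mt2 had a range of over 1.5-fold, which is the highest over the lowest of the 4 mice. This was 2 of 10 genes, against 12.9% of all genes above background. The other 8 genes stayed within 1.10-fold to 1.45-fold. The median range was 0.41 for the 10 genes and 0.34 for all genes above background. Both metallothionein calls rested on mouse 1. Without it, 0 of 10 genes exceeded 1.5-fold, against 2.71% of all genes. With quantile normalization of the 4 arrays Mt2 alone exceeded it, against 10.6% of all genes, and with arrays centred on their median Slc39a14 did so as well, against 16.1%.

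**Figure D1:**
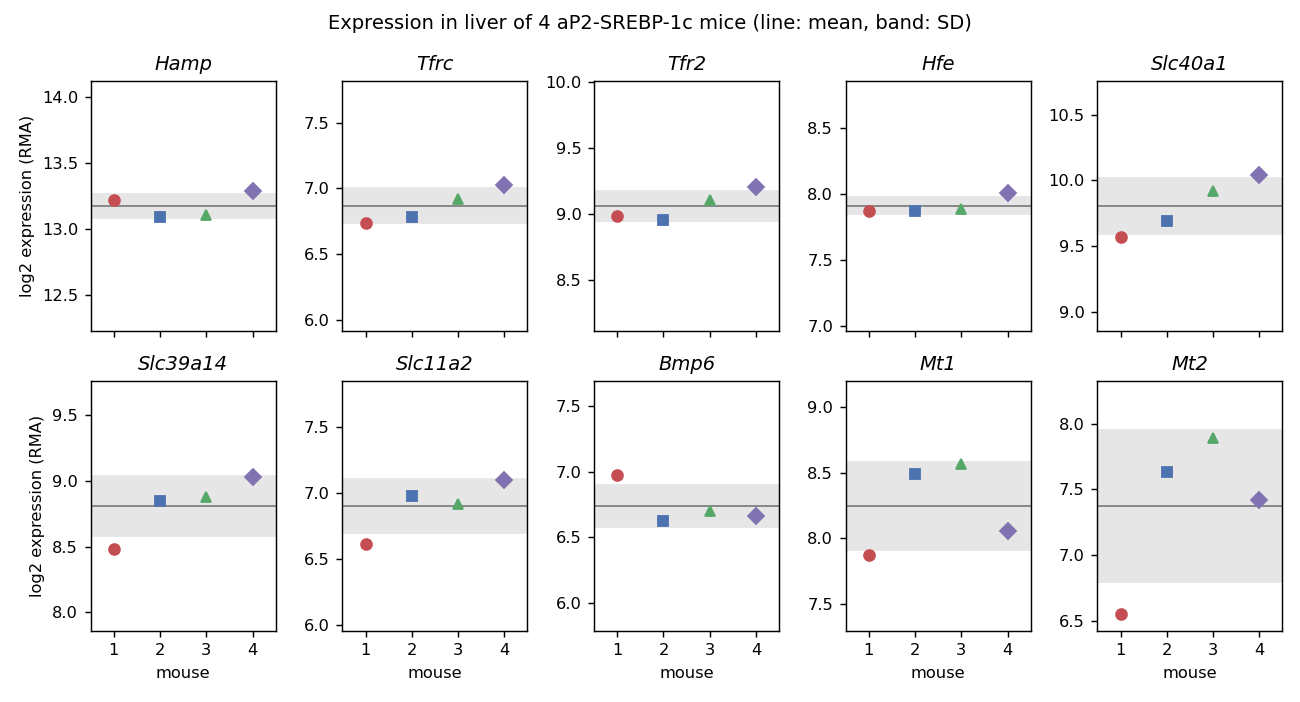
Log2 expression of the 10 genes by mouse, 1 panel per gene, with the mean of the mice as a line and ± SD as a band. All panels span the same height, so that the wide spread of Mt2 (SD 0.58) and the narrow one of Hfe (SD 0.06) can be compared directly.

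Hamp (probe set 10562169) was nearly the same in all mice, far above the background limit. Its values were 13.22, 13.09, 13.11 and 13.28 in mice 1 to 4, a 1.15-fold range, with a mean of 13.17 ± 0.09 (SD, n = 4) and a 95% confidence interval of 13.00 to 13.35. The values of mice 2 and 3 lay below those of mice 1 and 4. With quantile normalization the range was 1.23-fold. The mean lay 7.79 above the mean background limit. The highest value on each array lay only 1.24 to 1.43 above Hamp. On the log2 scale the range of Hamp was 0.20, and the median range of hepatocyte markers was 0.14. A narrow range was thus not particular to Hamp. The paralogue Hamp2, whose transcript closely resembles that of Hamp, was measured by its own probe set at 6.53, 6.50, 6.34 and 6.60. How far Hamp transcripts bind to that probe set was not tested.
The sensors of iron-loaded transferrin were equally steady. Tfr2 (probe set 10526630), whose product stabilizes the signal for hepcidin on the hepatocyte surface, was measured at 8.98, 8.95, 9.11 and 9.20 (mean 9.06 ± 0.12, SD, n = 4). Hfe (probe set 10408227), which encodes a class I-like protein that partners with the transferrin receptors, was measured at 7.87, 7.87, 7.89 and 8.01 (mean 7.91 ± 0.06, SD, n = 4). Mouse 4 had the highest value of both genes, and for Hfe the values of the other 3 mice lay within 0.02 of each other. Such a mouse apart from the rest, by its gap relative to the range, was found in 1 of 10 genes and in 5.75% of all genes. With quantile normalization Hfe was at 7.99, 7.86, 7.83 and 7.97, so that mouse 1 was the highest and mouse 4 no longer stood apart.

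Bmp6 (probe set 10404686), the iron-responsive ligand upstream of hepcidin, had its highest value in mouse 1, unlike the other 9 genes. It was measured at 6.97, 6.63, 6.70 and 6.66 in mice 1 to 4 (mean 6.74 ± 0.16, SD, n = 4). Mouse 1 was the highest, and the range of 1.27-fold shrank to 1.05-fold without it. Bmp6 is made by sinusoidal endothelial cells, and all 13 measured markers of these cells were above background. In mouse 1 these markers differed from the other mice by a median of -0.24, whereas Bmp6 differed by 0.31. With quantile normalization the median of the markers was -0.096, and all genes in the class of mean level of Bmp6 had a median of -0.07 in mouse 1 as deposited. In bulk liver RNA, fewer cells of a type and less RNA per cell cannot be told apart. The summed level of the endothelial markers, as log2 of the summed linear values, was 11.43 in mouse 1 and between 11.65 and 11.68 in the others. In the class of mean level of the markers that weigh most in this sum, all genes had a median of -0.22 in mouse 1. The part of endothelial cells in the values of Bmp6 was not tested.
Further genes of hepcidin control had a median range of 0.29, against 0.34 for all genes above background. Of 14 genes for BMP receptors, coreceptors, SMAD proteins and proteases, 13 were above background and none differed by more than 1.5-fold. Erfe, the erythroid suppressor of hepcidin, was not above background on all arrays. The widest ranges belonged to the BMP type II receptor gene Bmpr2 (8.84, 9.37, 9.33 and 9.19), to Hjv (9.01, 9.34, 9.31 and 9.50) and to Acvr1 (6.25, 6.43, 6.68 and 6.74). Bmpr2 reached 1.51-fold with arrays centred on their median. Hjv encodes hemojuvelin, the BMP coreceptor required for normal hepcidin expression, and Acvr1 a type I receptor. All these genes were lowest in mouse 1.
Of 9 target genes of BMP-SMAD signaling, all were above background and 2 exceeded 1.5-fold, against 12.9% of all genes. This count was 1 with quantile normalization, against 10.6%. Id3, an inhibitor of DNA binding, was measured at 8.26, 7.64, 7.66 and 8.02, and Atoh8, a transcription factor, at 6.99, 7.58, 7.55 and 7.36. These targets differed in opposite directions, with Id3 highest and Atoh8 lowest in mouse 1. Id4 was measured at 6.06, 6.31, 5.74 and 5.99. The median range of the 9 genes was 0.42, against 0.34 for all genes above background. Id1 (7.29, 6.91, 6.91 and 7.24) and Smad7 (7.03, 6.65, 6.74 and 7.08) were picked out after their values were seen. Like Id3 and Hamp, both were higher in mice 1 and 4 than in mice 2 and 3. As deposited, the other targets did not have this split, but with quantile normalization Id2 and Smad9 had it as well. The 9 target genes thus gave no order common to all of them. The part of BMP signaling in the values of Hamp was not tested.

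As deposited, the genes of iron import and export had their lowest values in mouse 1 and their highest in mouse 4. Of all genes above background, 46.1% were lowest in mouse 1 and 24.9% highest in mouse 4. With quantile normalization all remained highest in mouse 4, but only Slc11a2 and Slc39a14 were clearly lowest in mouse 1. Tfrc was then nearly equal in mice 1 and 2 (6.771 and 6.776). Tfrc (probe set 10435075), whose product takes up transferrin and whose mRNA is stabilized in iron-poor cells, was measured at 6.74, 6.78, 6.92 and 7.03 (mean 6.87 ± 0.13, SD, n = 4). Slc11a2 (probe set 10432573), whose product carries ferrous iron out of endosomes, was measured at 6.61, 6.98, 6.92 and 7.10 (mean 6.90 ± 0.21, SD, n = 4). For Slc11a2 the low value of mouse 1 made up most of the range, which was 1.40-fold with it and 1.13-fold without it.
Slc39a14 (probe set 10421309) was measured at 8.49, 8.85, 8.88 and 9.03 (mean 8.81 ± 0.23, SD, n = 4). Its range was 1.45-fold, with the lowest value in mouse 1. It was 1.13-fold without mouse 1, 1.28-fold with quantile normalization and 1.54-fold with arrays centred on their median. Slc40a1 (probe set 10354374), the gene of ferroportin, was measured at 9.57, 9.69, 9.92 and 10.04 (mean 9.81 ± 0.21, SD, n = 4). Its values were spread evenly over a 1.39-fold range. Mouse 1 differed from the others by -0.32 for Slc40a1, against a median of -0.23 in its class of mean level. With quantile normalization Slc40a1 was lowest in mouse 2 (9.665) and not in mouse 1 (9.734).
Ferroportin is abundant in Kupffer cells, the resident macrophages that recycle iron from red cells. All 12 Kupffer cell markers were above background, with a summed level (log2) of 11.26, 11.36, 11.39 and 11.45. Of these, 3 exceeded 1.5-fold, namely Marco, C1qb and Vsig4, against 12.9% of all genes. This count was 2 with quantile normalization, against 10.6%. Marco, a scavenger receptor gene, was highest in mouse 1 (7.06, 6.31, 6.14 and 6.63), whereas the complement gene C1qb was lowest there (8.00, 8.73, 8.78 and 8.49), as was Vsig4, a complement receptor gene (7.90, 8.37, 8.55 and 8.53). The part of Kupffer cells in the values of Slc40a1 was not tested.

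Among the genes of transferrin, ferritin and iron uptake, 14 of 17 were above background and 3 exceeded 1.5-fold, against 12.9% of all genes. This count was 1 with quantile normalization, against 10.6%. Steap1, Heph and Cybrd1 were not above background on all 4 arrays. The metalloreductase genes Steap2 (5.89, 6.37, 6.55 and 6.58) and Steap4 (8.81, 9.41, 9.47 and 9.42) were low in mouse 1, as was Rab11b (8.52, 9.21, 9.15 and 9.10), which serves endosome recycling. None of the 3 genes exceeded 1.5-fold without mouse 1. The ferritin heavy chain gene Fth1, picked out after its values were seen, was measured at 13.11, 13.46, 13.49 and 13.18, and the light chain gene Ftl1, picked out in the same way, at 12.06, 12.25, 12.21 and 12.14. Both ferritin chains were lower in mice 1 and 4 than in mice 2 and 3, the reverse of the split in Hamp. With quantile normalization this split was lost for Ftl1, which was at 12.20, 12.18, 12.13 and 12.14.
The iron regulatory proteins, which bind ferritin and transferrin receptor mRNA, differed little. Aco1 was measured at 9.92, 10.07, 10.02 and 10.02, Ireb2 at 8.25, 8.36, 8.47 and 8.53, and Fbxl5, which targets the product of Ireb2 for degradation, at 6.87, 7.33, 7.39 and 6.99. None of them exceeded 1.5-fold.
Of 16 measured genes of heme synthesis, breakdown and transport, all were above background and 1 exceeded 1.5-fold, against 12.9% of all genes. This was Cpox, a heme synthesis enzyme gene (mean 9.72 ± 0.27, SD, n = 4). The biliverdin reductase gene Blvrb (9.36, 9.87, 9.83 and 9.70) and the heme exporter gene Flvcr1 (6.27, 5.96, 6.37 and 6.10) followed by range. Of 6 measured genes of mitochondrial iron, none exceeded 1.5-fold, with the widest range in Glrx5 (8.91, 9.38, 9.34 and 9.18), then in the iron carrier gene Slc25a37 (6.86, 7.13, 7.26 and 7.30) and Nfs1 (7.92, 7.83, 8.08 and 8.22).
Of 11 erythroid markers only 5 were measured under their own symbol, and 2 of these were above background, Alas2 (9.20, 9.14, 9.24 and 9.34) and Slc4a1 (6.08, 6.50, 6.59 and 6.16). Epb42, Klf1 and Rhag were not above background on all 4 arrays, although Klf1 exceeded the limit in mice 1 and 2 (5.73 and 5.67). Their part in the values of Tfrc, which red cell precursors express strongly, was not tested.

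The metallothioneins stood out by their spread. Mt2 (probe set 10574023) was measured at 6.55, 7.63, 7.89 and 7.42 in mice 1 to 4, a 2.53-fold range, with a mean of 7.37 ± 0.58 (SD, n = 4) and a 95% confidence interval of 6.98 to 7.77. Mouse 1 was the lowest by far, and the other 3 mice lay within 1.39-fold. Mt1 (probe set 10574027) was measured at 7.87, 8.49, 8.56 and 8.06, a 1.62-fold range, with a mean of 8.25 ± 0.34 (SD, n = 4) and a 95% confidence interval of 7.98 to 8.51. For Mt1 not only mouse 1 but also mouse 4 was low, apart from mice 2 and 3. The intervals come from a limma fit that draws the variance of each gene towards that of all genes, so that for Mt2 the lowest and the highest mouse lay outside the interval.
Mouse 1 differed from the mean of the other mice by -1.10 for Mt2 and by -0.50 for Mt1. Mouse 1 was more than 1.5-fold below the others in 1 of the 10 genes, Mt2, and in 3.52% of all genes. In the classes of mean level that hold these genes, mouse 1 had a median difference of -0.15 for Mt2 and of -0.22 for Mt1. With quantile normalization Mt2 was at 6.57, 7.62, 7.83 and 7.40, still a 2.39-fold range, and Mt1 at 7.99, 8.48, 8.49 and 8.02, a 1.41-fold range. The difference between mice in Mt2 was thus nearly as large after this scaling, whereas that of Mt1 no longer exceeded 1.5-fold.
Mt1 and Mt2 are neighbouring genes and had the same lowest mouse (mouse 1) and the same highest mouse (mouse 3). After subtraction of each gene's mean, their values differed by a root mean square of 0.27 over the 4 mice. By this measure the genes most like Mt1 were Ttll12, Mrpl54 and Sfxn2, with root mean square differences of 0.017, 0.017 and 0.019. Those most like Mt2 were AW549877, Mospd1 and Cyb5d1, with 0.053, 0.056 and 0.063. Mt1 took place 540 among the genes most like Mt2, and Mt2 took place 5540 among those most like Mt1. The measure counts the size of a range as well as the order of the mice. That range was 1.34 for Mt2 and 0.69 for Mt1. A place far down therefore does not show that the neighbours varied apart. With 4 mice and 12265 genes above background, close matches of this kind are a description of these arrays.

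**Figure D2:**
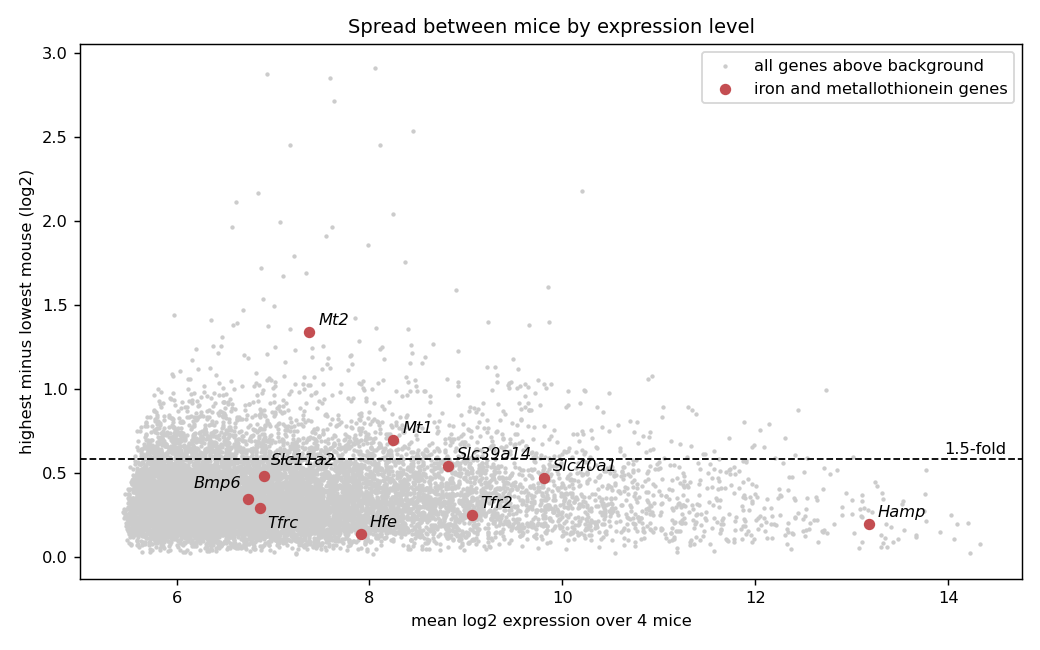
Highest minus lowest of the 4 mice (log2) against the mean log2 expression for all genes above background (grey) and the 10 genes of iron handling and metal binding (red), with 1.5-fold as a dashed line. Mt2 (range 1.34) and Mt1 (0.69) lie above the line, and the other 8 genes lie below it.

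Other genes of zinc and metal response were compared with the metallothioneins. All 15 were above background, and 4 exceeded 1.5-fold, against 12.9% of all genes. These were Slc39a4, Slc30a5, Mtf1 and Slc30a6. The count over the list was 3 with quantile normalization, against 10.6%. Slc39a4, the gene of the zinc importer ZIP4, was measured at 6.23, 7.31, 7.61 and 6.64, a 2.60-fold range with the same lowest and highest mouse as Mt1 and Mt2. Its range was 2.53-fold with quantile normalization and 1.96-fold without mouse 1. Mtf1, which encodes the metal-sensing factor, was measured at 6.89, 7.57, 7.28 and 7.14, and the zinc transporter gene Slc30a5 at 7.31, 8.00, 7.94 and 7.92. All 4 genes were lower in mouse 1 than the mean of the others. Over the whole list the median difference of mouse 1 was -0.03, and 0.089 with quantile normalization. Of the 15 genes 8 were below the others in mouse 1, against 62.4% of all genes.
Of 9 copper handling genes, all were above background and 1 exceeded 1.5-fold, against 12.9% of all genes. Slc31a2, a copper transporter gene, was measured at 7.94, 8.90, 8.93 and 8.50. The copper chaperone genes Ccs (mean 8.88 ± 0.20, SD, n = 4) and Atox1 (7.84, 8.18, 8.26 and 8.08) came next by range. All of these were lowest in mouse 1.

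Acute phase and glucocorticoid response genes were compared because both signals are known to induce metallothioneins, and the former hepcidin as well. Of 13 genes of interleukin 6 and STAT3 above background, 6 exceeded 1.5-fold, against 12.9% of all genes. This count was 5 with quantile normalization, against 10.6%. Lcn2, the gene of the siderophore-binding lipocalin 2, was measured at 6.80, 9.31, 9.34 and 8.33. The serum amyloid gene Saa2 was measured at 6.65, 8.85, 9.10 and 7.85, and Saa1 at 6.43, 8.15, 8.40 and 7.46. These 3 genes were lowest in mouse 1, intermediate in mouse 4 and highest in mice 2 and 3, as were Mt1 and Mt2. Of the list, 12 of 13 genes were lower in mouse 1 than the mean of the others, against the same 62.4%. The exception was Socs3 (6.65, 6.48, 6.38 and 6.59), which like Hamp was higher in mice 1 and 4 than in mice 2 and 3. Il6 itself was not above background on all 4 arrays.
Hamp did not share the order of Lcn2, Saa2 and Saa1. On the log2 scale, Lcn2 differed by -2.54 between mouse 1 and mouse 3, whereas Hamp was higher in mouse 1 than in mouse 3 (13.22 and 13.11). The part of interleukin 6 signaling in the values of Hamp was not tested.
The 10 glucocorticoid target genes above background had no common order, and 3 exceeded 1.5-fold, against 12.9% of all genes. This count was 3 with quantile normalization as well, against 10.6%. Tsc22d3, the gene of a glucocorticoid-induced leucine zipper protein, was measured at 6.30, 6.92, 7.08 and 6.72, with the same lowest and highest mouse as Mt2. The phosphatase gene Dusp1 (9.22, 8.71, 8.83 and 9.46) and the receptor feedback gene Errfi1 (11.67, 11.01, 11.15 and 11.51) were instead highest in mice 1 and 4. Cebpd was not above background on all 4 arrays.

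**Figure D3:**
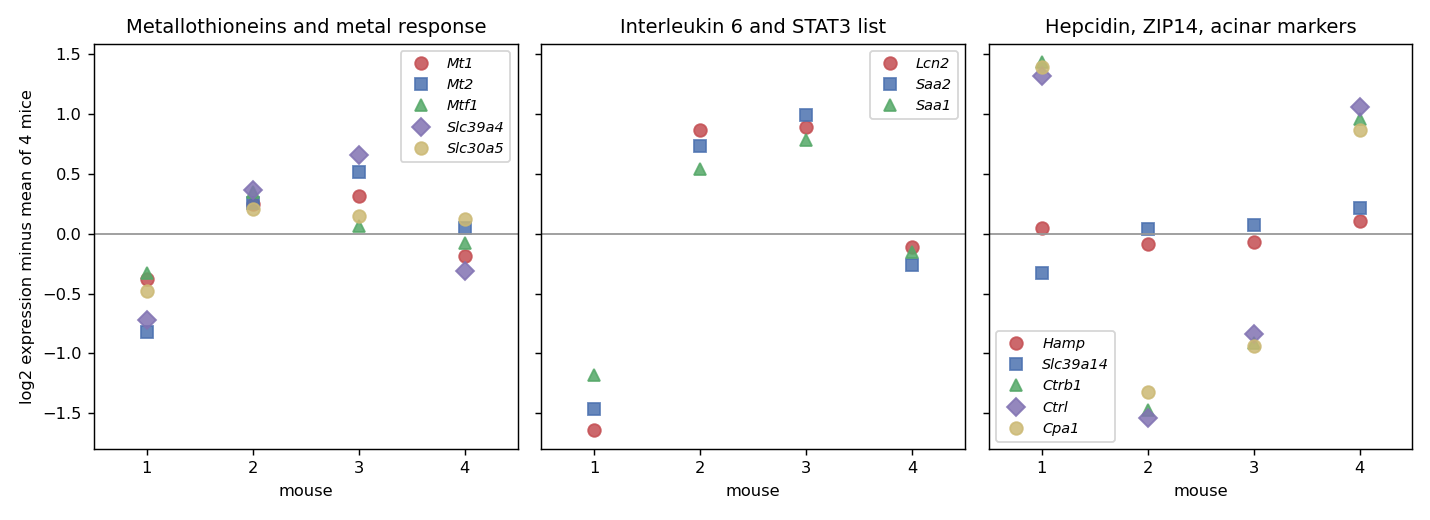
Log2 expression relative to each gene's own mean, by mouse, for Mt1 and Mt2 with the metal response genes of widest range (left), for the 3 genes of widest range of the interleukin 6 and STAT3 list (middle), and for Hamp, Slc39a14 and 3 pancreatic acinar genes (right). Mt2 and the genes in the middle panel have their lowest values in mouse 1, whereas Hamp stays within 0.20 across the mice and the acinar genes are high in mice 1 and 4.

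Transcripts of pancreatic acinar cells were high in mice 1 and 4, and Mt1 was low in both. Of 15 acinar markers, 13 were measured and 11 were above background, all with more than 1.5-fold between mice, while Try4 and Pnliprp1 were not above background on all 4 arrays. Pnliprp1 still exceeded the limit in mice 1 and 4 (6.42 and 6.60), and Try4 did so in mouse 1 (6.14). The summed level (log2) of the 11 markers above background was 11.85, 9.70, 10.01 and 11.59. The widest ranges were those of Ctrb1 (9.49, 6.58, 7.14 and 9.01), Ctrl (8.91, 6.05, 6.75 and 8.65) and Cpa1 (9.02, 6.31, 6.69 and 8.49), all genes of digestive enzymes. Mt1 was lower and the acinar genes were higher in mice 1 and 4 than in mice 2 and 3. Hamp was also slightly higher in mice 1 and 4 (13.22 and 13.28) than in mice 2 and 3 (13.09 and 13.11). Mt2 was lowest in mouse 1 (6.55), and its value in mouse 4 (7.42) was 0.87 above that. This value was still below those of mice 2 and 3 (7.63 and 7.89). It was 0.06 above the mean of the other mice, which includes the low mouse 1. The part of acinar tissue in these values was not tested.
Markers of hepatocytes, the main cells of the labelled tissue, were measured for 10 of 12 genes. All 10 were above background and none exceeded 1.5-fold, with the widest range in Hnf4a (10.19, 10.60, 10.62 and 10.48), followed by the transferrin gene Trf (13.90, 14.13, 14.15 and 13.94) and Apoa1 (13.70, 13.82, 13.89 and 13.68). Among the endothelial markers, Lyve1 (7.52, 8.28, 8.05 and 7.71) exceeded 1.5-fold, and Fcgr2b (8.65, 9.19, 9.21 and 9.12) and Oit3 (7.62, 7.93, 8.15 and 7.82) did not.

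The 10 genes were finally compared by the mouse that held their highest value. This was mouse 4 in 7 of 10 genes, namely Hamp, Tfr2, Hfe, Tfrc, Slc11a2, Slc39a14 and Slc40a1, whereas 24.9% of all genes were highest in mouse 4. With quantile normalization it was 6 of 10 genes, against 22.9%. Mouse 1 held the lowest value of 7 of 10 genes, against 46.1% of all genes, and of 5 of 10 genes after quantile normalization, against 36.1%. The differences were small for the 7 genes highest in mouse 4, since none exceeded 1.5-fold. Mouse 3 was instead the highest for both metallothioneins, and mouse 1 for Bmp6.

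**Figure D4:**
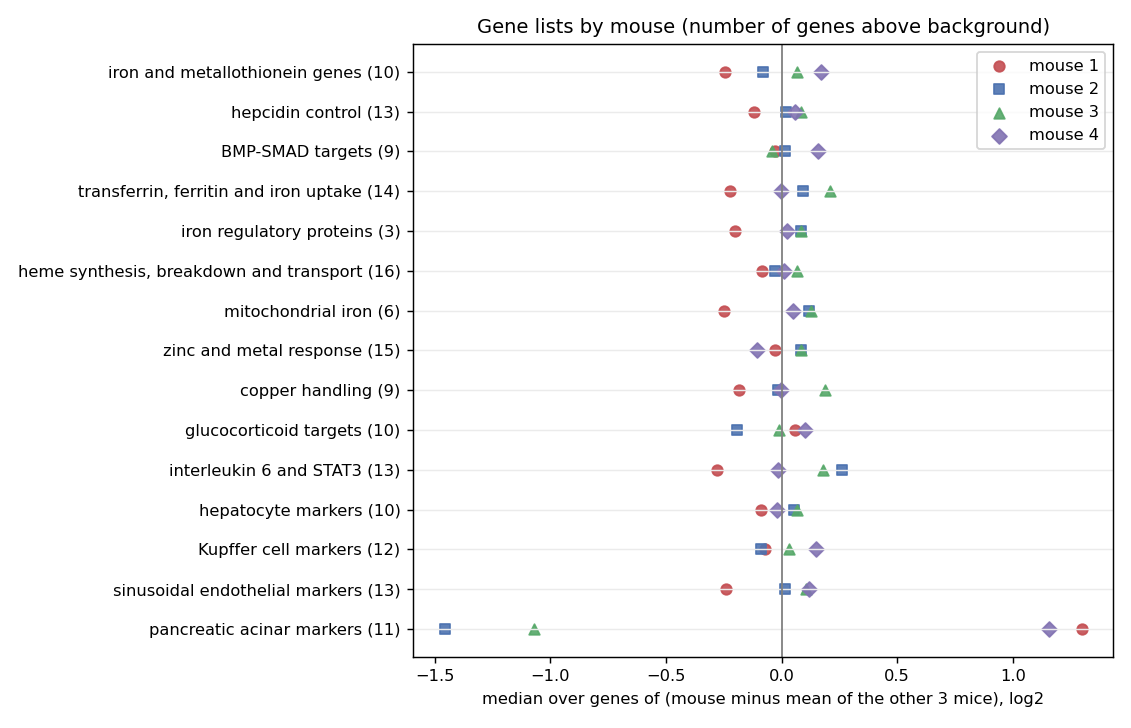
Median over the genes of each list of the difference between a mouse and the mean of the other 3 mice (log2), for the 10 genes of iron handling and metal binding, the lists of related genes and the cell type markers, with the number of genes above background in brackets. The acinar markers differ most, from -1.46 in mouse 2 to 1.30 in mouse 1, and the 10 genes range from -0.25 in mouse 1 (-0.11 with quantile normalization) to 0.17 in mouse 4.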

How the data were processed

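The authors deposited log2 expression values per probe set of Mouse Gene 1.0 ST arrays. The submitters' processing notes name RMA and the Affymetrix Expression Console. Which arrays were normalized together and the genome build are not given in the sources used here. Each of the 4 columns was assigned to its mouse by label, with 0 left over. Of 35556 probe sets, 21789 carried 1 symbol in the platform annotation (checked by gene identifier against RefSeq, GRCm38.p6), 1621 several and 12146 none here. Only those with 1 symbol were used, and each gene was represented by its brightest probe set on average.

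Background limits came from 1212 receptor probe sets. Log2 means and SDs were obtained in Python 3.11.15 (numpy 2.4.6, pandas 2.3.3), and 95% confidence intervals by a one-group fit in limma 3.58.1 (R 4.3.3). Steps were tested on simulated data. The number of arrays limits the precision. No pair of arrays shared more than 25 identical values, and arrays correlated at 0.974 to 0.993 across genes, which are not independent replicates. The 10 genes and the 15 lists of related genes and markers were chosen with earlier results of these data known. Trf, Fgb and Bmp2 each belong to 2 lists. The text names all 10 genes, the 3 genes above background with the widest range of each list, and the 3 genes most like Mt1 and Mt2. Fth1, Ftl1, Hamp2, Id1, Id2, Smad7, Smad9 and Socs3 were named outside this rule, after their values were seen. Alternatives were other scalings, background limits, folds, probe set summaries and leaving out each mouse.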

Additional observations from a re-analysis of the deposited data

Results flagged for a closer look

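For Hfe, mouse 4 stood apart from the other mice, with a difference of 0.13 from their mean on the log2 scale. This was 1 of the 10 genes, and 5.75% of all genes above background met the same criterion, a gap to the nearest mouse that is large relative to the whole range, which chance gives in about 1 of 20 groups. The difference is small, since the 4 mice lay within 1.10-fold. It depended on the scaling, and with quantile normalization Hfe was higher in mouse 1 (7.99) than in mouse 4 (7.97). Mouse 1 had an unusually high background limit of 5.52, against 5.33 to 5.35 on the other arrays. All 10 genes exceeded the limit on each array.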

How the results depend on the processing

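All 10 genes remained above background under every background limit and with each mouse left out. Only the limit at the 99th percentile could have lowered this count. A lower limit, or leaving out a mouse, only loosens the criterion, since each array has its own limit. Of 70 levels under alternatives, all moved by less than the SD of the gene, and of 70 ranges 63 did. For most levels this could not turn out otherwise. Leaving out 1 mouse cannot shift these means by a full SD, and centring on the median leaves the mean over the mice unchanged. Only quantile normalization could have moved a level that far, since each gene had 1 probe set. With quantile normalization the range of Hamp was 0.29, and with arrays centred on their median that of Hfe was 0.22. With 1 mouse left out, the range was 0.018 to 0.14 for Hfe, 0.18 to 0.54 for Slc39a14, 0.18 to 0.48 for Slc11a2, 0.073 to 0.35 for Bmp6 and 0.47 to 1.34 for Mt2. The lowest came without mouse 4 for Hfe and without mouse 1 for the others, which follows from leaving out the extreme mouse. The number of the 10 genes over 1.5-fold was 1 with quantile normalization (Mt2), 1 over 2-fold (Mt2), and 0 to 2 with 1 mouse left out, 0 without mouse 1. Over all genes it was 138 over 2-fold, 3749 with no filter on low values, and 346 to 1295 with 1 mouse left out, the lowest without mouse 1. The mean of all probe sets changed none of the 10 genes, since each had 1. Tfrc, Slc11a2 and Bmp6 lay only 1.35 to 1.52 above the mean background limit, which limits the precision of their ranges. No paired analysis was possible because there is only 1 group.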
